A study of Mus musculus with 6 samples.

Results

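The DNA replication and S-phase genes of long-term haematopoietic stem cells were compared between wildtype mice and mice labelled as knockouts of Irf8, a transcription factor of the interferon regulatory family known for its part in making monocytes and dendritic cells. The genes are a list of 40 chosen by name: the factors that mark origins, unwind DNA, copy both strands, join the fragments, package the new DNA and supply nucleotides, with the cyclins and E2F factors that start S phase. A gene was read from the probe set that names it alone and had the highest mean over all arrays, which left 39 of 40 genes of 18193 genes in all; Chaf1a was not analysed here. The cells were sorted from bone marrow as lineage-negative, c-kit-positive, Sca-1-positive, CD48-negative and CD150-positive. Each group had 3 Affymetrix Mouse Genome 430 2.0 arrays, wildtype (Irf8+/+) against knockout (Irf8-/-), all labelled at 3 weeks and untreated, and no other allele or agent is named. The labels call the samples biological replicates without naming animals, so p-values measure the spread between these samples.

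Replication begins when the origin recognition complex, with Cdc6 and Cdt1, loads the ring of Mcm2 to Mcm7 onto DNA. Cdc45 and the GINS complex then turn that ring into the active helicase, primase lays down short primers, and polymerases held by the sliding clamp Pcna extend them. Most of these genes are transcribed at the border of G1 and S under E2F factors. Long-term stem cells of adult marrow are mostly out of cycle, whereas those of young mice divide more often, so levels of these genes are commonly used to describe how many cells of a sample are in S phase. In bulk RNA, fewer cells in S phase and less RNA per cell cannot be told apart.

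E2F factors bind a short GC-rich sequence, and the promoters of the listed genes were searched for its letters. The letters were not used to choose the genes. Most genes of such a list are transcribed under E2F factors, however, so a high share of matches was likely from the choice of genes alone. The letters searched on both strands were TTTCCCGC, TTTCGCGC, TTTGCCGC and TTTGGCGC, in RefSeq windows of GRCm38.p6 that span 250 bases before to 50 after a start; matches on opposite strands may overlap each other. A window was given for 31 of the 39 genes, and 13 of these 31 genes held a match (41.9%). Among 36 windows of these genes 36.1% held a match, against 2.26% of all 32851 windows of this length. Among 69 windows of the other replication genes described further below the share was 30.4%, so the matches are not particular to this list. The CCAAT box, searched as CCAAT on both strands, was in 55.6% of the 36 windows, in 53.6% of the 69 and in 37.4% of all. Promoters of an origin factor, of 3 helicase subunits and of the phosphatase gene Cdc25a, whose values are given below, are shown 5′ to 3′ to let the shared letters be seen, with the matched letters in capitals. The window of Orc1 lies at chr4:108579354-108579453 on the plus strand and ends 1 base before the start; that of Mcm5 lies at chr8:75109312-75109411 on the plus strand, Mcm6 at chr1:128359731-128359830 on the minus strand, Mcm7 at chr5:138171995-138172094 on the minus strand and Cdc25a at chr9:109875466-109875565 on the plus strand.
Orc1: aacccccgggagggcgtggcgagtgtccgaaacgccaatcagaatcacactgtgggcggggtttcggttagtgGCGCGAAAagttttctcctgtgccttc
Mcm5: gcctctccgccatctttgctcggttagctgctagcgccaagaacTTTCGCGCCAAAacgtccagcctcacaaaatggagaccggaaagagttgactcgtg
Mcm6: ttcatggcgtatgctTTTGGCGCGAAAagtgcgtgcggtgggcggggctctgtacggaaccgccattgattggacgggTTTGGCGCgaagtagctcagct
Mcm7: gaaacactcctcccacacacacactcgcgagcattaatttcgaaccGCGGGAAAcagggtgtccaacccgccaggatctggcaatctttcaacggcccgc
Cdc25a: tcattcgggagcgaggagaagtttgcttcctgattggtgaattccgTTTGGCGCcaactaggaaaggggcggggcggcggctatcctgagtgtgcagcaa
In the window of Mcm5 and in the first of the capital blocks of Mcm6, 2 matches on opposite strands overlap. The windows of Pcna, Rfc4 and Mcm2 held none of these letters. The 13 genes with a match had a median difference between genotypes of -0.24 on the log2 scale and the 18 genes without one -0.01, with 6 and 9 genes above 0.

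The arrays themselves differed in their correlation with each other and in marker genes of cell types. Array medians of the deposited log2 values ran from 4.85 to 4.96 over 45037 probe sets. The mean correlation of knockout replicate 3 with the rest was 0.845 across genes, below the 0.873 to 0.893 of the other arrays. All 11 measured neutrophil genes had a difference above 0, and their mean level ran from 6.90 to 8.09 in wildtype and from 8.79 to 11.85 in knockout, highest in knockout replicate 3. Cd48, which the sort selects against, read 3.13 to 4.54 in wildtype and 7.60, 9.42 and 3.55 in knockout replicates 1, 2 and 3. The other 4 measured genes that the sort selects against (Cd3e, Cd4, Cd8a and Itgam) averaged under the median gene level of 5.81. All 8 measured stem cell genes, among them Kit, Procr and Hlf, averaged above it over the 6 arrays, but their mean level was 8.34 in knockout replicate 3 against 9.16 to 9.91 on the other arrays. Slamf1, which encodes CD150, varied in both groups: it read 5.97, 9.11 and 6.63 in wildtype and 9.02, 8.49 and 4.71 in knockout. Not every stem cell gene was low in knockout replicate 3, where Meis1 read 10.85 against 10.45 to 10.73 in wildtype. Of 8 erythroid genes 6 had a difference below 0, and their mean level ran from 6.15 to 6.98 in wildtype and from 5.20 to 5.98 in knockout. Irf8 did not check the labels: its brighter probe set read 4.98, 6.43 and 5.16 in wildtype and 4.91, 6.39 and 6.50 in knockout. The part of these differences in the results below was not tested.

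Across the 39 genes the 2 genotypes were not separated. The median of the differences, taken as knockout minus wildtype in log2 units, was 0.03. Of the 39 genes 20 lay above 0 and 19 below, where 56.6% of all genes lay above and 43.4% below. Of the 9096 genes above the median level, 4282 lay above 0 and 4814 below. The median was -0.05 over those 9096 genes and 0.07 over all genes. Of the 39 genes 0 passed an adjusted p of 0.05 in limma, beside 0% of all genes, and their adjusted p lay between 0.887 and 0.995. At an unadjusted p under 0.05 there was 1 gene, Pcna, with a lower value in knockout, beside 2.44% of all genes lower and 2.4% higher. Groups did not overlap for 3 of the 39 genes, 1 higher in knockout (Rfc4) and 2 lower (Pcna and Cdc25a), beside 6.67% of all genes higher and 4.25% lower; among genes above the median level, where 36 of the 39 lie, these shares were 4.89% and 6.3%. The median absolute difference was 0.44, against 0.49 over genes above the median level. The precision was low: the median standard error was 0.61, and for 30 genes the 95% interval of the difference reached more than 1 log2 unit to each side. A p above the threshold in these data therefore does not show equal levels.

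**Figure D1:**
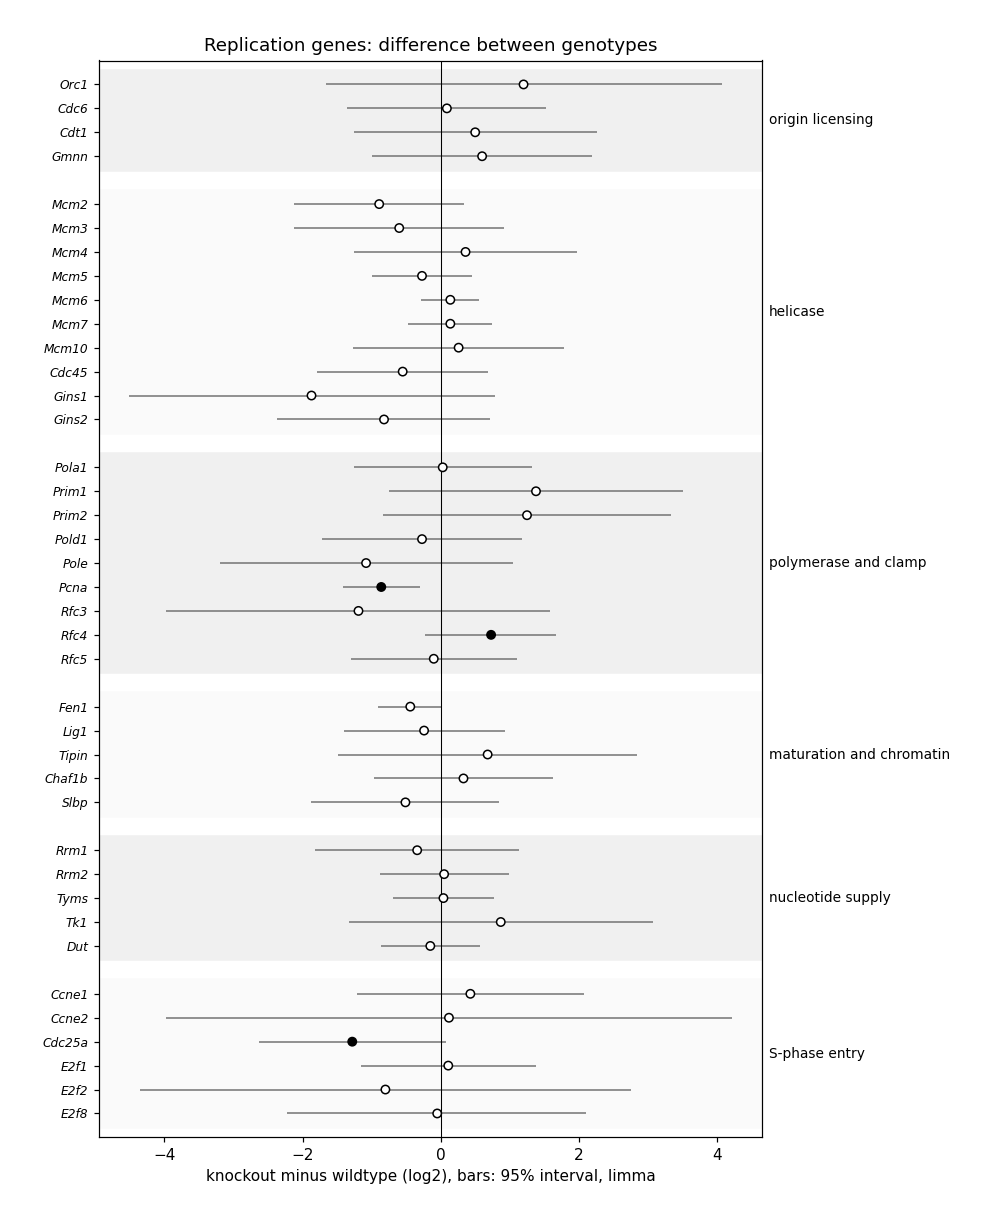
Knockout minus wildtype difference of each of the 39 replication genes on the log2 scale, ordered by role, with 95% intervals from limma (n = 3 per group). Filled points mark Pcna, Rfc4 and Cdc25a, whose groups do not overlap; 38 of the 39 intervals hold 0, and that of Pcna lies below it.

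Origin licensing was represented by 4 genes, and all 4 had differences above 0, with a median of 0.55. Orc1, the largest subunit of the origin recognition complex, read 5.67, 3.67 and 4.28 in wildtype and 8.54, 4.76 and 3.94 in knockout. Only knockout replicate 1 stood above the rest, and without it the difference turned from 1.20 (SE 1.20) to -0.20. The other probe set of Orc1, also under the median gene level, gave -1.43. Cdc6, the ATPase that recruits the helicase loader, differed by 0.09. Cdt1, which brings the Mcm ring to the origin, read 10.36, 10.12 and 8.54 in wildtype and 10.48, 8.91 and 11.14 in knockout, a difference of 0.50 (SE 0.74; -0.06 without wildtype replicate 3) with overlapping groups; its other 2 probe sets gave 1.28 and 0.29. Geminin (Gmnn), the inhibitor that holds Cdt1 in check after S phase has begun, read 7.83, 8.23 and 8.14 in wildtype and 8.95, 7.43 and 9.61 in knockout. For Gmnn the knockout arrays lay on both sides of all 3 wildtype arrays, and its difference of 0.60 was 0.12 without knockout replicate 3 and 1.21 without knockout replicate 2. The median of the 4 genes from the wildtype mean was 0.95 in knockout replicate 1 and 0.44 in replicate 3, but -0.39 in replicate 2, without which the difference between genotypes was 1.18.

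The replicative helicase was represented by 10 genes with a median difference of -0.41, 6 of them below 0. The 6 subunits of the ring are used in equal numbers, but the probe sets that stand for them differed in how steady they were from array to array. Mcm6 read 11.33, 11.43 and 11.19 in wildtype and 11.44, 11.57 and 11.36 in knockout, the narrowest range of the 39 genes at 0.39, and its difference was 0.14 with a 95% interval of -0.28 to 0.56. Mcm7 read 11.42, 11.43 and 11.78 in wildtype and 11.44, 12.18 and 11.41 in knockout, a difference of 0.14 (95% interval -0.47 to 0.75). Mcm5 read 11.48, 11.62 and 10.78 against 11.11, 11.29 and 10.67, a difference of -0.27 (95% interval -0.99 to 0.45). For these 3 probe sets the intervals leave out a change of 1 log2 unit in either direction, that is a 2-fold change. Other probe sets of the same genes above the median level were mostly less steady. A second probe set of Mcm6 ran from 8.70 to 10.25 over the arrays (difference 0.21, SE 0.54). A second probe set of Mcm5 gave -0.87 (SE 0.59). Of the other 3 probe sets of Mcm7, 1 gave 0.11 (SE 0.27), 1 gave -0.59 (SE 0.45) and 1, which ran from 6.65 to 8.96, gave -0.51 (SE 0.78). The 3 negative values of Mcm5 and Mcm7 from these other probe sets do not leave out a 2-fold lower level. The second probe set of Mcm6 leaves out a 2-fold change in neither direction. Leaving out each array in turn gave -0.53 to -0.09 for Mcm5 and 0.07 to 0.20 for Mcm6 in the probe sets that stand for them.

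The other 3 ring subunits varied more in the probe sets that stand for them. Mcm2 read 10.09, 11.32 and 9.67 in wildtype and 9.02, 9.72 and 9.66 in knockout, a difference of -0.89 (SE 0.52). Its other probe set gave -1.29, so both probe sets read lower in knockout, although the groups overlapped in each; without wildtype replicate 2 the difference was -0.41. Mcm3 read 11.34, 11.59 and 9.61 in wildtype and 9.90, 11.14 and 9.70 in knockout, and the low values came from 1 wildtype and 2 knockout arrays. Its difference of -0.60 was -1.22 without wildtype replicate 3 and -0.23 without wildtype replicate 2. Of the 5 probe sets of Mcm3, 4 gave differences below 0, and in 1 of them the groups did not overlap: it read 9.09, 9.26 and 9.24 in wildtype and 7.53, 7.97 and 7.37 in knockout, a difference of -1.57 (SE 0.43; adjusted p = 0.902 in limma over all probe sets). The remaining probe set of Mcm3 gave 0.03. Mcm4 read 10.17, 10.45 and 8.02 in wildtype and 10.01, 9.81 and 9.89 in knockout, where wildtype replicate 3 alone stood apart. Without that array the difference of Mcm4 turned from 0.36 to -0.40, and its other probe set gave -0.51.

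Of the 4 factors that join the ring or activate it, 3 had a difference below 0, none passed the test and the groups overlapped for each. Gins1, a subunit of the GINS complex, read 8.43, 10.13 and 9.48 in wildtype and 5.11, 8.06 and 9.28 in knockout. Its difference of -1.87 (SE 1.11) is the largest in size of all 39 genes and rests on knockout replicate 1, without which it was -0.68; its other probe set gave -0.21. Gins2, another GINS subunit, differed by -0.82 (SE 0.65; -0.42 without knockout replicate 2), and its other probe set by -0.17. Cdc45, the third component of the active helicase, differed by -0.55 (SE 0.52; -0.29 without wildtype replicate 2), and its other probe set by 0.16. Mcm10, which helps to activate the assembled helicase, differed by 0.26 (SE 0.64). The groups overlapped for all 10 helicase genes.

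Polymerases, primase, clamp and clamp loader comprised 9 genes with a median of -0.10, 4 above 0 and 5 below. Pcna, the ring that holds polymerases on DNA, had the smallest unadjusted p of the list. It read 11.90, 11.90 and 11.71 in wildtype and 11.20, 11.17 and 10.54 in knockout. All 3 knockout arrays lay below all 3 wildtype arrays. The difference was -0.86 (SE 0.24, 95% interval -1.42 to -0.30) with an adjusted p of 0.887 in limma, and it ran from -0.98 to -0.65 when each array was left out in turn. A single probe set reads Pcna, so no other probe set can be set beside it.

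The clamp is opened by replication factor C, of which 3 subunits are on the list and had differences of both signs; the other 2, Rfc1 and Rfc2, differed by 0.07 and -0.14. Rfc4 read 9.71, 9.79 and 8.87 in wildtype and 10.36, 9.97 and 10.22 in knockout, with all 3 knockout arrays above wildtype. Its other probe set, which read 4.93, 6.32 and 5.82 against 6.94, 7.40 and 7.94, had the same order. The differences were 0.73 (SE 0.40; 0.43 without wildtype replicate 3) and 1.73 (SE 0.57), and neither passed (adjusted p = 0.887 over genes and 0.902 over probe sets in limma). Rfc3 had differences of the opposite sign, -1.19 and -1.35 in its 2 probe sets; the first rests on knockout replicate 3, which read 4.40 where the other arrays read 7.92 to 8.91, and was 0.16 without it. Rfc5 differed by -0.10 (SE 0.50).

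Both subunits of primase, the enzyme that makes the RNA primers, had differences above 0 in every probe set. Prim1, the catalytic subunit, read 10.73, 10.87 and 7.50 in wildtype and 11.27, 10.72 and 11.23 in knockout. Prim2, the larger subunit, read 8.64, 7.88 and 5.51 in wildtype and 8.17, 9.01 and 8.59 in knockout. In both genes wildtype replicate 3 was the low array, and without it the difference went from 1.38 to 0.27 for Prim1 and from 1.25 to 0.33 for Prim2. A second probe set of Prim2 separated the groups: it read 7.49, 6.82 and 5.65 in wildtype and 7.95, 11.01 and 7.93 in knockout, a difference of 2.31 (SE 1.00; adjusted p = 0.902 in limma over probe sets). The second probe set of Prim1 read 9.23 in wildtype replicate 3, level with 9.29 in replicate 1, and its low array was wildtype replicate 2 at 7.29. Among the polymerase catalytic subunits, Pola1, which extends primers, differed by 0.03 (SE 0.54), and Pold1, of the polymerase that copies the lagging strand, by -0.27 (SE 0.61). Pole, of the polymerase that copies the leading strand, differed by -1.08 (SE 0.89) and had its lowest value, 6.97, in knockout replicate 1, without which the difference was -0.29.

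Strand maturation, fork protection, histone supply and chromatin assembly comprised 5 measured genes with a median of -0.24. Fen1, the nuclease that trims the flaps of lagging-strand fragments, read 11.88, 11.98 and 12.11 in wildtype and 11.29, 11.88 and 11.47 in knockout. Knockout replicate 2 met the lowest wildtype array, so the groups just touched, and the difference was -0.44 (SE 0.19, 95% interval -0.91 to 0.02). The ligase Lig1, which seals the trimmed fragments, differed by -0.24 (SE 0.49). Tipin, which protects stalled forks, read 9.56, 9.04 and 6.74 in wildtype and 8.33, 8.73 and 10.31 in knockout, and its difference turned from 0.68 to -0.18 without wildtype replicate 3. Chaf1b, a subunit of the assembly factor that loads histones behind the fork, read 10.26, 9.60 and 8.90 against 9.10, 10.20 and 10.45, a difference of 0.33 (SE 0.55). Slbp, which binds the end of histone messages, read 10.74, 10.71 and 8.91 in wildtype and 9.46, 9.44 and 9.92 in knockout. Here too wildtype replicate 3 stood apart from the other wildtype arrays, below all 3 knockout arrays, and the difference of -0.51 was -1.12 without it.

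Nucleotide supply had the smallest median absolute difference of the roles, 0.15, in the probe sets that stand for its 5 genes. The median difference was 0.04. Ribonucleotide reductase makes deoxyribonucleotides from a large subunit, Rrm1, and a small subunit, Rrm2, whose level limits the enzyme in S phase. Rrm1 read 9.83, 10.52 and 9.01 in wildtype and 9.31, 10.40 and 8.63 in knockout, a difference of -0.34 (SE 0.62). Rrm2 read 10.46, 11.31 and 10.004 in wildtype and 10.36, 10.84 and 10.74 in knockout, a difference of 0.05 (95% interval -0.88 to 0.99). Its other 2 probe sets gave 0.65 and -1.15. The thymidine kinase Tk1, a salvage enzyme of S phase, read 7.94, 8.99 and 6.40 in wildtype and 7.84, 7.98 and 10.12 in knockout. Knockout replicate 3 carried its difference of 0.87 (SE 0.92), which was 0.13 without that array. Dut, which clears dUTP so that uracil is not built into DNA, differed by -0.15 (SE 0.30) and by -0.01 without wildtype replicate 3. Its other probe set, also above the median gene level, gave -0.99 (SE 1.18), and the mean over its probe sets gave -0.57. Tyms, the thymidylate synthase, was under the median gene level in all 4 of its probe sets and differed by 0.04 (SE 0.31), so little can be read from it in either direction.

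S-phase entry control comprised 6 genes with a median of 0.03, 3 on each side of 0. Cdc25a, the phosphatase that activates Cdk2 at the start of S phase, read 8.46, 8.73 and 7.99 in wildtype and 6.57, 7.89 and 6.89 in knockout. All 3 knockout arrays lay below wildtype, with a difference of -1.28 (SE 0.57; adjusted p = 0.887 in limma). Its other probe sets gave -0.36 and 0.59 with overlap, and the mean over its probe sets gave -0.35. The cyclins E, partners of Cdk2, were uneven. Ccne1 read 6.997, 6.60 and 7.34 in wildtype and 8.71, 6.49 and 7.03 in knockout, so that knockout replicate 1 alone was high, and the difference of 0.43 turned to -0.22 without it. A second probe set of Ccne1 had all 3 knockout arrays (6.51, 5.79 and 6.05) below wildtype (6.77, 6.78 and 7.47), a difference of -0.89 in the opposite direction. Ccne2 read 3.84, 4.27 and 7.65 in wildtype and 9.07, 3.16 and 3.90 in knockout, with 1 high array in each group. The E2F factors also overlapped between genotypes: E2f1, an activator, differed by 0.11 (SE 0.53), and E2f8, a repressor, by -0.05 (SE 0.91). E2f2, another activator, read 6.19, 8.27 and 6.93 in wildtype and 3.32, 6.23 and 9.44 in knockout, the widest range of the list at 6.12 log2 units.

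**Figure D2:**
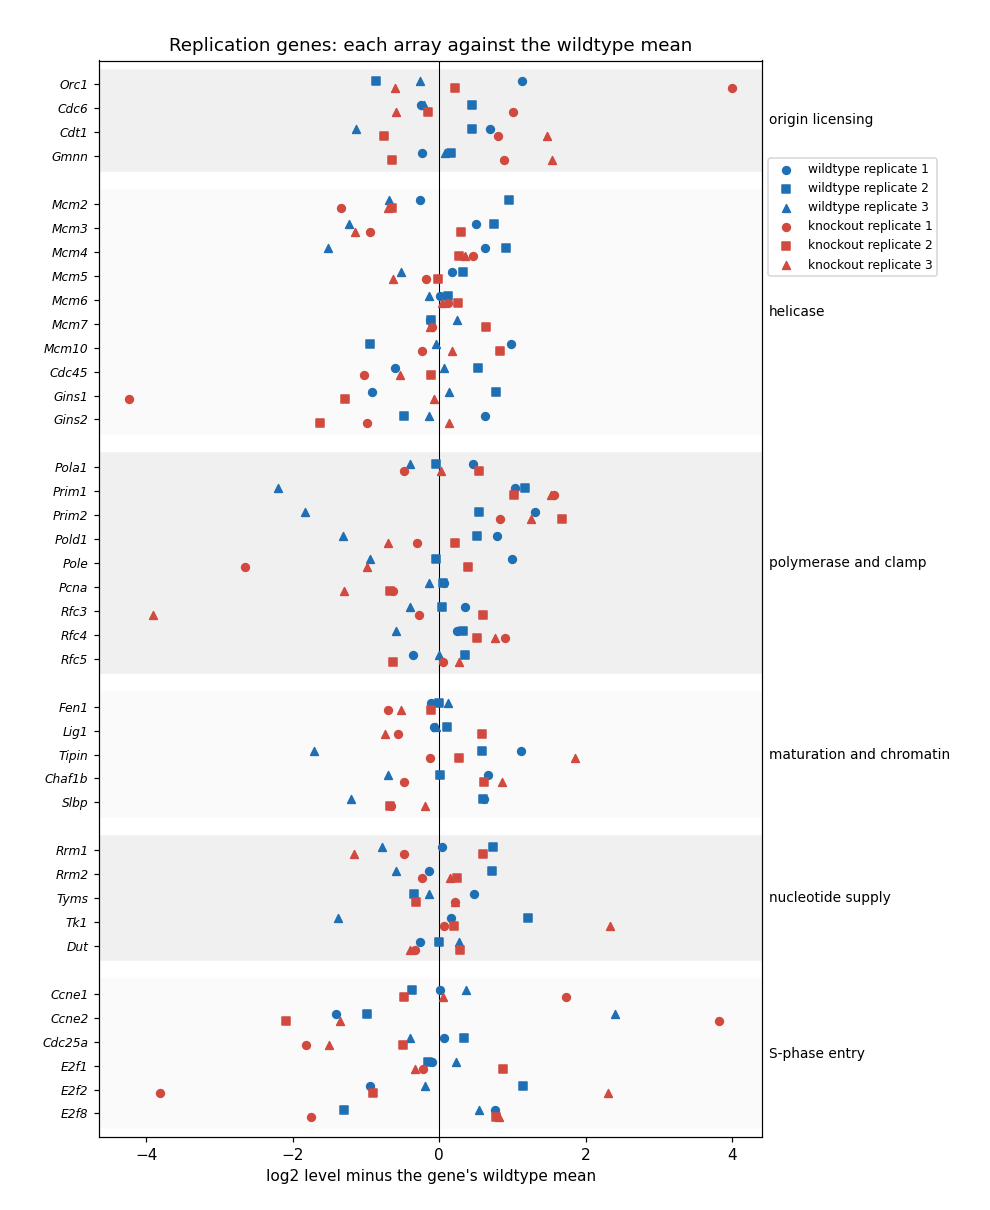
Level of each of the 39 genes on each array minus that gene's wildtype mean, on the log2 scale; colour marks genotype and symbol the replicate number. The genotypes overlap for all genes but Pcna, Rfc4 and Cdc25a, and wildtype replicate 3 (blue triangles) lies far left for Mcm4, Prim1, Prim2 and Tipin.

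Arrays of the same genotype also differed from each other. Wildtype replicate 3 was the lowest array for 13 of the 39 genes (33.3%), whereas it was lowest for 16.2% of genes above the median level, and it was highest for 1. Wildtype replicate 1 was lowest for 0 of the 39 genes, against 12.9% of genes above the median level. The median of the 39 genes from the wildtype mean was 0.16, 0.33 and -0.26 in wildtype replicates 1, 2 and 3 and -0.23, 0.22 and -0.07 in knockout replicates 1, 2 and 3. The genotypes interleave in that order. The median difference of 0.03 was -0.18 without wildtype replicate 3 and -0.23 without knockout replicate 2, and lay between -0.08 and 0.02 without any other single array. The low position of wildtype replicate 3 depended on which probe set stood for a gene. Among the other 32 probe sets of these genes above the median level, that array was lowest in 5 (15.6%), and knockout replicate 3 was lowest in 11 (34.4%) and highest in 9 (28.1%). Among all genes above the median level, knockout replicate 3 was lowest for 24.3% and highest for 21.0%.

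**Figure D3:**
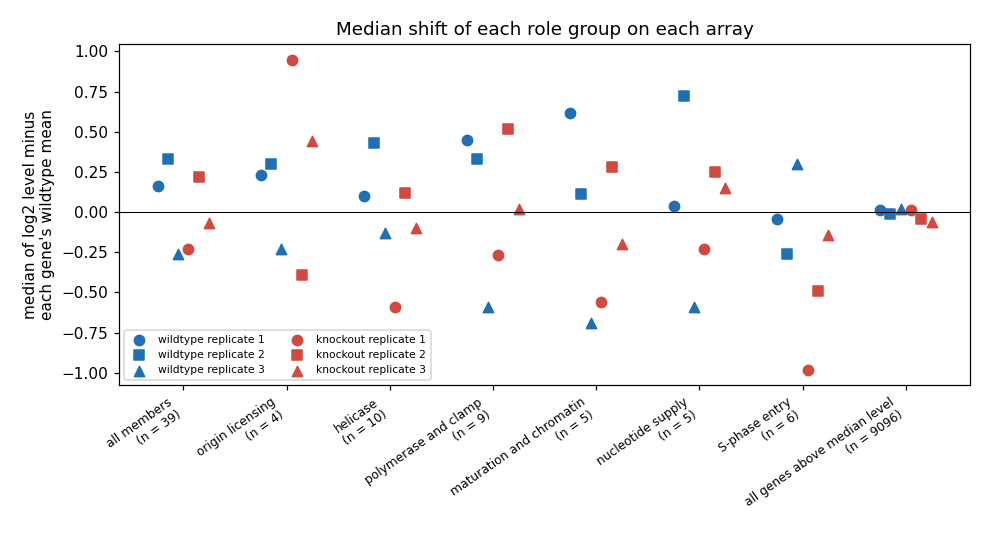
Median over the genes of each role of the log2 level minus each gene's wildtype mean, for the 6 arrays (no error bar, each point is 1 array). Wildtype replicate 3 stands at -0.59 for polymerase and clamp and for nucleotide supply and at -0.69 for maturation and chromatin, while S-phase entry is lowest in knockout replicate 1 at -0.98; the 9096 genes above the median level lie between -0.06 and 0.02 on all arrays.

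Genes of mitosis followed the order of arrays of the 39 genes only in part. The median of 19 measured G2/M genes from the wildtype mean was 0.28, -0.09 and -0.12 in wildtype replicates 1, 2 and 3. In knockout replicates 1, 2 and 3 it was -0.88, 0.97 and 0.56. Wildtype replicate 3 and knockout replicate 1 were the lowest arrays in both lists, and the other arrays stood in a different order. The mean level of 19 measured G2/M genes was 8.66, 8.60 and 8.24 in wildtype and 7.41, 9.01 and 8.94 in knockout. Knockout replicate 1 was the low array there. Of the 19 genes 11 had a difference above 0 and 8 below, beside 4282 and 4814 of the 9096 genes above the median level. Of the 19, 0 passed an adjusted p of 0.05 in limma. Lower in knockout without overlap were 2, beside 4.25% of all genes and 6.3% of those above the median level, where all 19 lie. The same 2 had an unadjusted p under 0.05 in limma, beside 2.44% of all genes lower. The 2 genes were Nusap1, a spindle protein, at -3.00 (SE 0.91) and Ube2c, a ubiquitin-conjugating enzyme of mitotic exit, at -1.49 (SE 0.51). For each the adjusted p in limma was 0.887. Mki67, the common proliferation marker, read 11.81, 11.63 and 12.17 in wildtype and 10.50, 11.70 and 11.57 in knockout, with overlap.

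Probe sets of the same gene often disagreed in sign. Of the 30 genes with several probe sets, 12 had 1 sign throughout and 18 had both. When only probe sets above the median gene level were counted, 13 of 23 genes had 1 sign and 10 had both. Of 86 probe sets, 42 had a difference above 0 and 44 below, and groups did not overlap in 3 above and 5 below, beside 6.45% and 4.48% of all 34945 single-gene probe sets. Genes with more than 1 probe set above the median level that all lay on one side were, among others, Mcm2, Rfc3 and Gins2 below 0 and Cdt1, Prim1, Prim2 and Rfc4 above 0. The probe set that stands for a gene has the suffix x or s, which marks possible cross-hybridisation, for 10 of the 39 genes, among them Mcm2 to Mcm7 and Fen1.

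**Figure D4:**
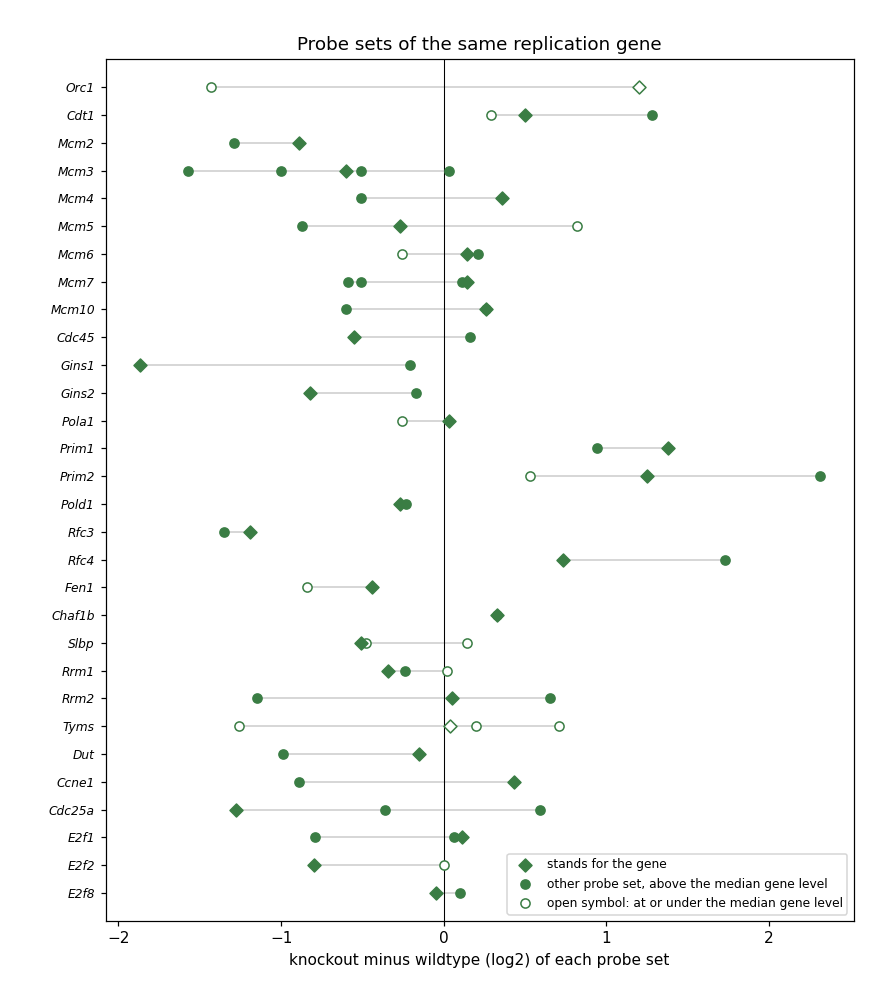
Knockout minus wildtype difference (log2, n = 3 per group) of every probe set of the 30 replication genes that have more than 1; diamonds stand for the gene elsewhere in the text and open symbols lie at or under the median gene level of 5.81. Points of a gene lie on both sides of 0 for 18 of the 30 genes.

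Of 70 other replication genes, from the remaining origin and polymerase subunits to replication protein A, checkpoint and nucleotide enzymes, 0 passed an adjusted p of 0.05 in limma. At an unadjusted p under 0.05, 1 was higher and 2 were lower in knockout, beside 2.4% of all genes higher and 2.44% lower. Their median difference was -0.10, with 30 above 0 and 40 below. Of the 9096 genes above the median level, 4282 lay above 0 and 4814 below, with a median of -0.05. Groups did not overlap for 2 of the 70 genes higher and 7 lower, beside 6.67% and 4.25% of all genes. Among genes above the median level, where 66 of the 70 lie, these shares were 4.89% and 6.3%. Npat, the coactivator of histone gene transcription, read 7.25, 9.10 and 6.58 in wildtype and 4.80, 5.55 and 3.49 in knockout, a difference of -3.03 (SE 0.81). Its 2 probe sets both lay below 0. Samhd1, which breaks down deoxyribonucleotides, read 9.54, 9.95 and 9.63 in wildtype and 8.91, 8.47 and 8.01 in knockout, a difference of -1.25 (SE 0.45); 2 of its 5 probe sets lay below 0 and 3 above. Next by unadjusted p came Shmt1, a folate enzyme that feeds thymidylate synthesis, at -1.54 (-0.87 without knockout replicate 1), and Pold2, a subunit of polymerase delta, at -1.05 (-0.67 without knockout replicate 3). Dbf4, the regulatory subunit of the Cdc7 kinase that fires origins, stood at -1.05 (-0.44 without wildtype replicate 3) in a probe set under the median gene level.

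In the other direction, Fbxo5, an inhibitor of the anaphase-promoting complex, read 7.90, 5.63 and 6.41 in wildtype and 8.75, 8.04 and 8.44 in knockout, a difference of 1.76 (SE 0.70) without overlap. Orc3, a subunit of the origin recognition complex, differed by 0.67 (SE 0.36), also without overlap, though 2 of its 3 probe sets lay below 0. Cdc7 differed by 1.15 (0.55 without wildtype replicate 2), but 1 of its 2 probe sets lay below 0 and their mean gave 0.46. The nuclease Dna2 differed by 1.49 (0.69 without wildtype replicate 3), with 2 of its 3 probe sets below 0 and a mean over them of 0.38. The repressor E2f7, read by 1 probe set, differed by 1.94 (0.75 without wildtype replicate 3). The groups overlapped for Cdc7, Dna2 and E2f7.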

How the data were processed

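The authors deposited a log2 value for each probe set and sample. Per the submitters' processing notes the tools were RMA, Partek and Affymetrix Expression Console, with no version; their settings, the test and a genome build are not given in the sources read here. RMA compresses differences of dim probe sets.

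Of 45037 probe sets 34945 named 1 gene, 932 several and 9160 none in the platform annotation; 34741 matched RefSeq by Entrez number. Per gene the probe set with the highest mean was used, without a filter on level. Samples were grouped by title. The genotypes were compared with limma 3.58.1 under R 4.3.3 (lmFit, eBayes with trend) and p-values were adjusted by Benjamini-Hochberg over 18193 genes, threshold 0.05. In simulated data on these 18193 genes the fit called 5.8% of genes changed 2-fold, 33.2% at 4-fold and 67.6% at 16-fold. Members, lists and the naming rule were chosen with earlier results of these data known. The rule gives all array values for genes without overlap, for each role's smallest p and largest difference and for functional pairs, and up to 5 other replication genes per direction; Cdt1, Gmnn, Prim2, Slbp, E2f2, Cd48, Slamf1, Rfc1, Rfc2, Mki67, Nusap1, Ube2c and single probe sets were added after their values were seen. Alternatives covered moderation, array weights, probe set choice, level, scaling, a replicate block and each array left out. The number of arrays limits the precision.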

Additional observations from a re-analysis of the deposited data

How the results depend on the processing

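No replication gene and no other replication gene passed an adjusted p of 0.05 in limma in the 15 alternatives run. In the 14 of them that give 1 value per gene, the lowest adjusted p of a named gene in limma was 0.653. Over all genes 0 passed, except 1 with the mean of probe sets. Of the 49 named genes 27 kept the sign of their difference wherever they were fitted in the 14 alternatives with 1 value per gene, and 22 did not. Some of these alternatives could not change a difference. Fitting without the trend, fitting only genes above the median level and adding the replicate block leave it the same by construction. For a gene with 1 probe set, such as Pcna, the choice of probe set could not change it either. Among the 27 were Pcna, Rfc4, Cdc25a, Fen1, Mcm2, Mcm5, Mcm6, Gins1 and both primase genes. The remaining alternative fitted every probe set. There a further probe set of Cdc25a (0.59), of Mcm5 (0.82) and of Mcm6 (-0.26) had the opposite sign. Those of Mcm5 and Mcm6 lay under the median gene level. With the mean of probe sets the difference was -0.11 for Orc1, -0.07 for Mcm4, -0.21 for Mcm7 and E2f1, -0.03 for Mcm10, -0.12 for Pola1, -0.15 for Rrm2, -0.08 for Tyms, -0.23 for Ccne1 and 0.02 for E2f8. With array weights it was -0.01 for Rrm2 and -0.02 for Tyms. With only probe sets without the suffix x or s, an alternative chosen after seeing the data, it was 0.03 for Mcm3 and -0.51 for Mcm4 and Mcm7. For these genes the alternatives read other probe sets; with array weights the cause was not tested. Leaving out each array in turn gave differences from -0.20 to 2.11 for Orc1, -0.37 to 0.43 for Cdc6, -0.06 to 1.14 for Cdt1, -0.40 to 0.81 for Mcm4, -0.11 to 0.27 for Mcm7, -0.22 to 0.74 for Mcm10, -0.23 to 0.28 for Pola1, -0.92 to 0.13 for Pold1, -2.09 to 0.16 for Rfc3, -0.29 to 0.17 for Rfc5, -0.65 to 0.01 for Lig1, -0.18 to 1.23 for Tipin, -0.02 to 0.74 for Chaf1b, -0.82 to 0.06 for Rrm1, -0.24 to 0.41 for Rrm2, -0.13 to 0.28 for Tyms, -0.22 to 0.89 for Ccne1, -1.72 to 1.32 for Ccne2, -0.27 to 0.33 for E2f1, -2.36 to 0.70 for E2f2 and -0.71 to 0.79 for E2f8. When an array was left out, the median ran from -0.23 to 0.02 over the 39 genes, 0.08 to 1.18 for origin licensing, -0.53 to -0.21 for the helicase, -0.23 to 0.13 for polymerases and clamp, -0.43 to 0.01 for maturation and chromatin, -0.05 to 0.02 for nucleotide supply and -0.37 to 0.22 for S-phase entry control. The replicate block, with 1 array of each genotype per number, cannot alter a difference (median of the 39 genes 0.03), and it changed no call. The numbers only name samples, with correlations of same-numbered deviations of -0.02, -0.01 and -0.01. With 3 arrays per group, a simulated 2-fold change was called for 5.8% of genes. Those genes were drawn from all 18193, whose median standard error was 0.46 against 0.61 for the 39 genes. The share called among the 39 genes was not tested.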
